A study of Mus musculus with 10 samples.

Results

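The glucose-responsive genes described here are Txnip, Arrdc3, Arrdc4, Mlxipl, Pklr, Gckr, Khk and Slc2a2, 8 of the 13942 genes tested. They were chosen by name, with measured differences of these arrays already known, among them that in the intensity of Txnip between fed Pml knockout and fed wild type liver. In the files they are the probe sets of an Affymetrix Mouse Gene 2.1 ST array that are annotated with 1 of these symbols alone, taking the brightest where a gene had several, and each of the 8 had 1 such probe set. That difference of Txnip and its genotype by fasting interaction are therefore given as descriptions without a test. All 8 probe sets lay above the array median on 10 of 10 arrays, so the filter on dim probe sets removed none.

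The groups were Pml knockout liver after 6 h without food (3 arrays), wild type liver after 6 h without food (3), Pml knockout liver fed ad libitum (2) and wild type liver fed ad libitum (2). All mice were female, 3 months old and of the BALB/cByJ strain. The protocol note on food removal stands with every sample, the fed ones included, and the groups follow the sample titles. The sources used here do not give the deleted sequence of the Pml allele, the time of day of collection or whether each array is a separate animal. A p value therefore sets a difference against the scatter of these samples only, some of which may be technical. If arrays share an animal, that scatter leaves out part of the variation between animals. Array medians lay between 43.5 and 47.5 intensity units. Levels are given as log2 of the normalized intensity, differences as log2 with the fitted standard error (SE), and a gene was called at a Benjamini-Hochberg adjusted p under 0.05 in limma over all genes tested.

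Mlxipl encodes ChREBP, a transcription factor of hepatocytes that is activated when glucose metabolites rise and that binds DNA with its partner Mlx at paired E-box-like elements. Pklr, the liver pyruvate kinase, is its textbook target, and Txnip and Arrdc4 are classic targets of ChREBP and of its relative MondoA (Mlxip). Txnip, Arrdc3 and Arrdc4 belong to the alpha-arrestins: Txnip binds thioredoxin and lowers glucose uptake, Arrdc4 also restrains glucose uptake, and Arrdc3 is an adaptor for ubiquitin ligases. Gckr holds glucokinase in the nucleus when fructose 6-phosphate is high, Khk phosphorylates fructose, and Slc2a2 is GLUT2, the main glucose transporter of hepatocytes.

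The promoters of Txnip, Pklr and Arrdc4 are shown because these genes include the textbook ChREBP targets of the list and because Txnip ran against Arrdc4 with fasting in wild type liver. They come from RefSeq (GRCm38.p6) and cover 250 bases before to 50 after a transcript start, 5′ to 3′ in the direction of the gene. Capitals mark the paired element, CACGNG followed after 5 further bases by CNCGNG, in Txnip and Pklr, and the E-box CACGTG in Arrdc4.
Txnip (chr3:96557707-96558006, plus strand): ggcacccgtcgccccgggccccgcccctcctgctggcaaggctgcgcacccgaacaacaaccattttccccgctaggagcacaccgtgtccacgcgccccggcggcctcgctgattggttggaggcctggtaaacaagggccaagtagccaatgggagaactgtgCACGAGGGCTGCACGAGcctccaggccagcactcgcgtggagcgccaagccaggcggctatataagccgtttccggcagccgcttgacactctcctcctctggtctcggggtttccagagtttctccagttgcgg
Pklr (chr3:89136373-89136672, plus strand, the second of 2 starts): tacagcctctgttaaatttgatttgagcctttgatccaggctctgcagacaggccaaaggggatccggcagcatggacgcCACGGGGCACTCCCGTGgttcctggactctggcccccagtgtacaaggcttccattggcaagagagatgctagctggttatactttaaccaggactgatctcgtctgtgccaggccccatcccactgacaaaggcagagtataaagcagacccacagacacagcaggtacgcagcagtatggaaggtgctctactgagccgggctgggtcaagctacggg
Arrdc4 (chr7:68749189-68749488, minus strand): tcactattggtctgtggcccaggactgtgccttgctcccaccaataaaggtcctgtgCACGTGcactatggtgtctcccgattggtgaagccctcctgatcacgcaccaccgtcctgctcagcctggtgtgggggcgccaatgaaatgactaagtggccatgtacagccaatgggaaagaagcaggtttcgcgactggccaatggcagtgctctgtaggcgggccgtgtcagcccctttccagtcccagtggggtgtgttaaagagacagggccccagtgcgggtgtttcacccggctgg

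All 8 genes matched the promoter table, with 12 entries in all. The paired element, searched on both strands with any base at N, was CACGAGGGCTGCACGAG in Txnip, from base -85 to -69, and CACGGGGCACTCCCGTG in Pklr, from base -170 to -154, counted back from the start. It was in the window of 2 of the 8 genes, against 0.43% of the 27025 genes of the table (115 genes). The 6-base E-box, which neither of those elements contains, was in the window of Arrdc4, Mlxipl and Khk, 3 of 8 genes, against 8.09% of all genes. In Arrdc4 it began at base -193. The 8 genes were chosen by name and include known ChREBP targets, so these shares are no test of enrichment. A match of letters is a description of these windows only.

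The genotype labels were checked first. Pml had log2 intensities from 6.05 to 6.35 in fasted knockout and from 7.50 to 8.13 in fasted wild type arrays. It lay at 6.91 and 6.41 in fed knockout, against 8.37 and 8.22 in fed wild type arrays. The difference was -1.60 (SE 0.18, adjusted p = 0.00434 in limma) in fasted liver and -1.63 (SE 0.22, adjusted p = 0.0399) in fed liver. The call in fed liver was lost in all 10 omissions of 1 array (adjusted p from 0.0582 to 0.263), and that in fasted liver in none. Whether this probe set lies within the deleted part of Pml is unknown here.

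The fasted knockout arrays did not form 1 group by clock genes. Dbp, a clock output gene, lay at 10.05, 9.80 and 6.00 in fasted knockout replicates 1, 2 and 3, against 6.07, 6.58 and 6.64 in fasted wild type replicates 1 to 3. It was 9.88 and 10.02 in fed knockout and 9.50 and 9.58 in fed wild type arrays. Arntl (BMAL1), which runs opposite to Dbp in the clock, lay at 4.60, 4.53 and 8.87 in the same fasted knockout arrays, against 9.04 to 9.29 in fasted wild type arrays. Fasted knockout replicate 3 therefore lay with fasted wild type on these genes, and replicates 1 and 2 on the side of the fed arrays. For the 8 genes and for the list genes called between the fasted genotypes, that difference is given below with and without replicates 1 and 2. The fit without them leaves 1 fasted knockout array, so a lost call cannot tell dependence on those arrays from a smaller group.

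Hepatocyte markers (Alb, Ttr, Apoa1, Hnf4a, Serpina1a and Tat) were above the array median on every array. Of the other marker lists, 5 of 5 macrophage, 5 of 5 sinusoidal endothelial, 4 of 5 stellate, 1 of 4 cholangiocyte, 0 of 3 adipocyte and 0 of 4 pancreas markers with a probe set were above it on every array, and Lep, Ins2 and Prss2 were above it on none. No red blood cell marker had a probe set with a single gene. In bulk liver RNA, fewer cells of a type and less RNA per cell cannot be told apart.

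**Figure D1:**
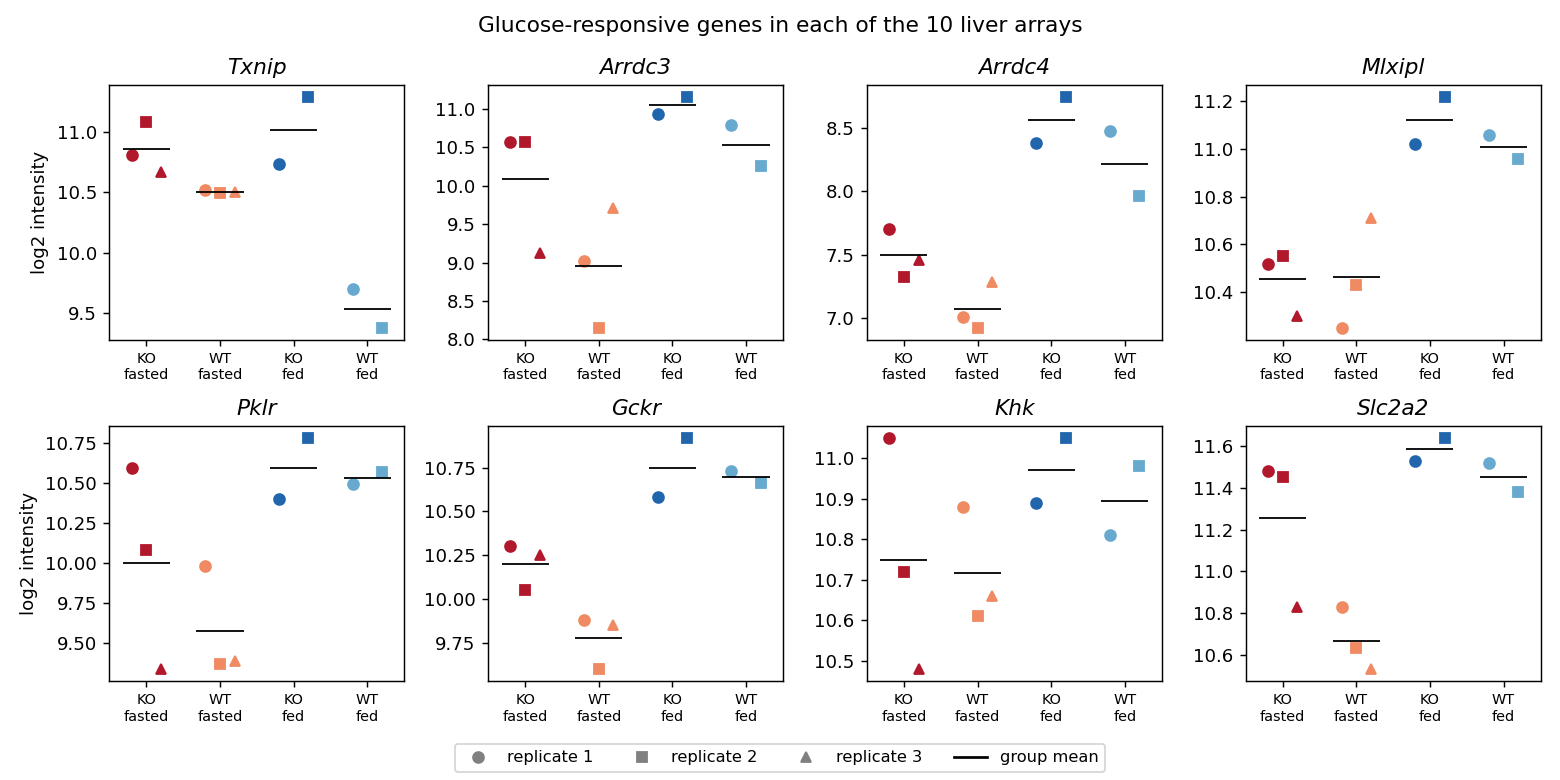
Log2 intensity of each of the 8 genes (vertical axis, a separate scale per gene) on each array, by group, with a symbol shape for each replicate number and the group mean as a line. Txnip is lowest in the 2 fed wild type arrays, at 9.70 and 9.38, whereas Arrdc4, Mlxipl and Gckr are lower in fasted than in fed arrays in both genotypes.

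Fasted was first set against fed wild type liver. Txnip rose and 4 of the other 7 genes fell (Arrdc4, Mlxipl, Gckr and Slc2a2), while Arrdc3, Pklr and Khk were not called. Of all genes, 8.23% were called higher and 13.2% lower in this comparison, 21.4% in all. At an unadjusted p under 0.05 there were 7 of the 8, against 35.3% of all genes. Txnip was higher and 6 genes were lower without overlap between fasted and fed wild type arrays, Khk being the exception, where 23.0% of all genes were higher and 29.7% lower without overlap. The median difference of the 8 genes was -0.85, against -0.02 over all genes. Txnip is part of the counts over the 8 genes, though its fed wild type arrays entered the difference that led to its choice. For Txnip these counts are therefore not independent of that choice.

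Among the alpha-arrestins, Txnip had log2 intensities of 10.52, 10.49 and 10.50 in fasted wild type arrays, against 9.70 and 9.38 in fed wild type arrays. The fasted arrays lay close to one another (SD 0.01, n = 3) and above both fed arrays, a rise of 1.95-fold (log2 0.96, SE 0.18, adjusted p = 0.00601). The fed wild type arrays also entered the difference that led to the choice of Txnip, so this test is not independent of that choice. Arrdc4 lay at 7.01, 6.92 and 7.28 in fasted wild type and at 8.48 and 7.96 in fed wild type. It fell by 1.15 on the log2 scale (SE 0.19, adjusted p = 0.00369), to 45.1% of the fed level, the opposite direction to Txnip. Arrdc3 lay at 9.02, 8.15 and 9.71 in fasted wild type and at 10.79 and 10.26 in fed wild type. Its difference was -1.57 (SE 0.50, adjusted p = 0.0503), the largest of the 8 in size, but its fasted arrays were spread over more than 1 log2 unit. It was called without fasted wild type replicate 3 (-1.94, adjusted p = 0.0309) and without fasted knockout replicate 3 (-1.57, adjusted p = 0.0184).

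Mlxipl lay at 10.25, 10.43 and 10.71 in fasted wild type arrays, against 11.06 and 10.96 in fed wild type arrays. The gene of ChREBP itself thus fell by 0.55 (SE 0.15, adjusted p = 0.0274). Omitting replicate 1 or 2 of fed wild type ended the call of Mlxipl (adjusted p = 0.148 and 0.0769), as did omitting replicate 1 or 2 of fasted wild type (0.0740 and 0.0727). Its target Pklr lay at 9.98, 9.37 and 9.39 in fasted wild type, against 10.49 and 10.57 in fed wild type. All 3 fasted arrays were below both fed arrays, with a difference of -0.95 (SE 0.32, adjusted p = 0.0639) that was not called. Without fasted wild type replicate 1, the highest of the 3, Pklr was called (-1.15, adjusted p = 0.0473), as it was without fasted knockout replicate 1 (adjusted p = 0.0314) or 3 (0.0183).

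Of the genes that handle glucose and fructose on entry, Gckr lay at 9.88, 9.60 and 9.85 in fasted wild type and at 10.73 and 10.66 in fed wild type arrays. It fell by 0.92 (SE 0.14, adjusted p = 0.00233), to 52.8% of the fed level, with the smallest p of the 8. Slc2a2 lay at 10.83, 10.63 and 10.53 in fasted wild type, against 11.52 and 11.38 in fed wild type. It fell by 0.79 (SE 0.19, adjusted p = 0.0170), a call that ended when replicate 1 or 2 of fed wild type (adjusted p = 0.110 and 0.0525) or replicate 3 of fasted wild type (0.0543) was omitted. Khk lay at 10.88, 10.61 and 10.66 in fasted wild type and at 10.81 and 10.98 in fed wild type. The groups overlapped, and the difference of Khk was -0.18 (95% interval of the fit -0.55 to 0.19, adjusted p = 0.483). The calls of Arrdc4 and Gckr held in all 10 omissions of 1 array. That of Txnip did too, but its test is not independent of its choice.

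Clock genes and marker sums also differed in the same comparison. In wild type, Dbp (-3.11, SE 0.96, adjusted p = 0.0455) and Nr1d1 (-3.115, SE 0.415, adjusted p = 0.00132) were lower after fasting in limma. Cry1 was higher (2.86, SE 0.37, adjusted p = 0.00124). It lay at 4.90 to 5.65 in fed wild type, where array medians were 5.44 and 5.54, so the size of its rise is uncertain. Of 7 clock genes tested, 4 were called, against 21.4% of all genes. The part of clock state in this comparison was not tested. The call of Dbp held in 3 of the 10 omissions of 1 array (adjusted p up to 0.159), and that of Nr1d1 in all 10. The summed intensity of the 6 hepatocyte markers was 29204 to 29905 in fasted wild type and 27964 to 28026 in fed wild type arrays. That of the 4 cholangiocyte markers was 280 to 308 in fasted wild type and 258 to 268 in fed wild type, and that of the 4 pancreas markers 116 to 158 in fasted wild type and 166 to 182 in fed wild type. Only 1 of the 4 cholangiocyte and 0 of the 4 pancreas markers were above the median on every array. Here and in the comparisons below, those sums therefore rest in part on dim probe sets. Macrophage sums overlapped, at 2277 to 2413 in fasted wild type and 2379 to 2840 in fed wild type. The part of these markers in the results was not tested.

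**Figure D2:**
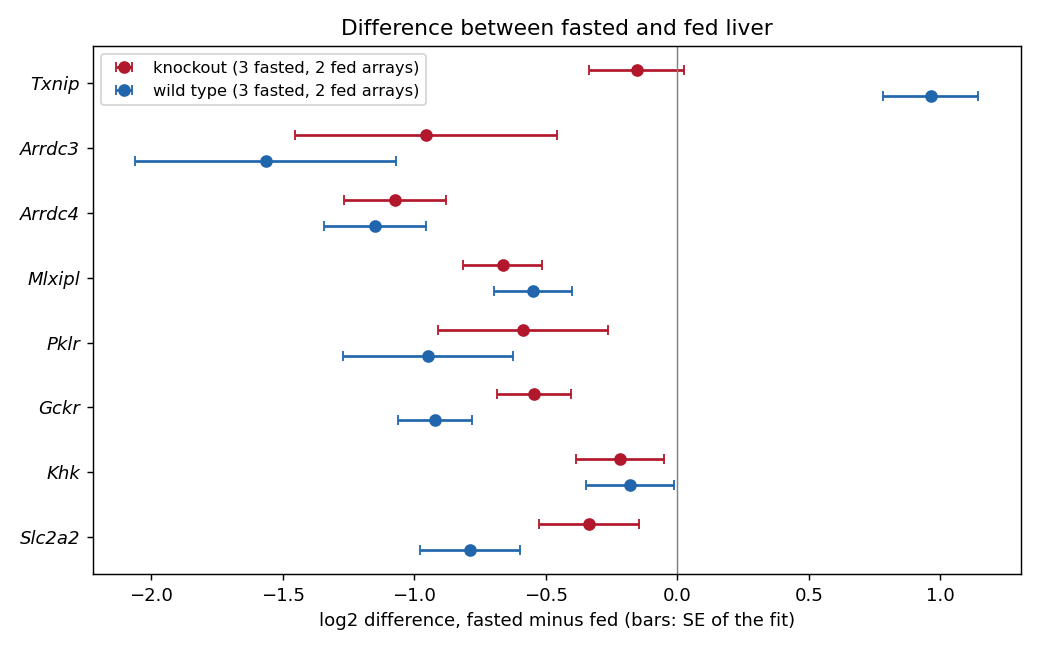
Log2 difference between fasted and fed liver (horizontal axis) for each gene, in knockout and in wild type, with the SE of the fit as bars. Txnip stands at -0.15 in knockout and 0.96 in wild type, while the other 7 genes are below 0 in both genotypes.

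In knockout liver the same comparison called 1 of the 8 genes, Arrdc4, as lower. Of all genes, 0.868% were called lower and 1.68% in either direction. All 8 differences were below 0, with a median of -0.57, against 0.01 over all genes, and 5 of the 8 genes were lower without overlap between fasted and fed knockout arrays (18.5% of all genes). At an unadjusted p under 0.05 there were 3 genes, Arrdc4, Mlxipl and Gckr, against 19.2% of all genes. Txnip is part of the 8 signs and of the median, though its fed knockout arrays entered the difference that led to its choice.

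Arrdc4 lay at 7.70, 7.32 and 7.46 in fasted knockout arrays, against 8.38 and 8.75 in fed knockout arrays. It fell by 1.07 (SE 0.19, adjusted p = 0.0369), to 47.6% of the fed level, beside 45.1% in wild type. The interaction of Arrdc4 was 0.08 (SE 0.27, adjusted p = 0.903, 95% interval -0.54 to 0.69). The call in knockout held without either fed wild type array or without fasted knockout replicate 1. Omitting replicate 1 or 2 of fed knockout ended it (adjusted p = 0.0757 and 0.251), as did omitting replicate 1, 2 or 3 of fasted wild type (0.0569, 0.0519 and 0.0559) or replicate 2 or 3 of fasted knockout (0.0710 and 0.0898). It was also lost with the replicate number as a block (-1.12, adjusted p = 0.0853).

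Txnip lay at 10.81, 11.08 and 10.67 in fasted knockout and at 10.73 and 11.29 in fed knockout arrays. The groups overlapped, and the difference of Txnip was -0.15 (SE 0.18, adjusted p = 0.687, 95% interval -0.56 to 0.25). The fed knockout arrays entered the difference known when Txnip was chosen, so this test is not independent of that choice either. The interaction of Txnip, which holds the fed genotype difference, was -1.12 (SE 0.26) and is given as a description. Mlxipl lay at 10.52, 10.55 and 10.30 in fasted knockout, against 11.02 and 11.22 in fed knockout, a difference of -0.66 (SE 0.15, adjusted p = 0.0573) beside -0.55 in wild type. Gckr was lower by 0.54 (SE 0.14, adjusted p = 0.0832), with 10.30, 10.05 and 10.25 in fasted knockout and 10.58 and 10.92 in fed knockout.

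In Pklr, Arrdc3 and Slc2a2, fasted knockout replicate 3 was well below the other fasted knockout arrays. Pklr lay at 10.59, 10.08 and 9.34 in fasted knockout replicates 1, 2 and 3, against 10.40 and 10.78 in fed knockout. Replicate 1 was within the range of the fed arrays and replicate 3 more than 1 log2 unit below them. Arrdc3 lay at 10.57, 10.57 and 9.13 in the same fasted knockout arrays, against 10.93 and 11.16 in fed knockout. Slc2a2 lay at 11.48, 11.45 and 10.83, against 11.53 and 11.64 in fed knockout. For Arrdc3 and Slc2a2, replicates 1 and 2 lay just under the fed knockout arrays and replicate 3 well below, the division that Dbp shows. Khk lay at 11.05, 10.72 and 10.48 in fasted knockout and at 10.89 and 11.05 in fed knockout, with overlap. The difference of Pklr was -0.59 (SE 0.32), that of Arrdc3 -0.95 (SE 0.50), that of Slc2a2 -0.34 (SE 0.19) and that of Khk -0.22 (SE 0.17), none of them called. With fasted knockout replicates 1 and 2 left out, those of Pklr, Arrdc3, Slc2a2 and Khk were -1.25, -1.92, -0.76 and -0.49, with adjusted p between 0.0707 and 0.172. In that fit the single fasted knockout array is assumed to vary like the other groups. Macrophage sums did not overlap in this comparison (2660 to 2887 in fasted knockout, 2381 to 2607 in fed knockout), nor did cholangiocyte sums (241 to 263 in fasted knockout, 223 to 239 in fed knockout), and their part was not tested.

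The third comparison set fed knockout against fed wild type liver. Txnip lay at 10.73 and 11.29 in fed knockout arrays, against 9.70 and 9.38 in fed wild type arrays. Both fed knockout arrays were also above all 3 fasted wild type arrays, and the difference was 1.47 (SE 0.20), or 2.77-fold, a value that was known when the genes were chosen. Leaving out 1 array in turn moved it between 1.19 and 1.75. None of the other 7 genes was called by limma, and 0 of them had an unadjusted p under 0.05. Of all genes, 0.0861% were called and 8.63% had an unadjusted p under 0.05.

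The differences of the 7 genes other than Txnip between the fed genotypes were all above 0, with a median of 0.11, against -0.02 over all genes. Of the alpha-arrestins, Arrdc3 lay at 10.93 and 11.16 in fed knockout, against 10.79 and 10.26 in fed wild type, without overlap (0.52, SE 0.54, adjusted p = 0.860). Arrdc4 lay at 8.38 and 8.75 in fed knockout and at 8.48 and 7.96 in fed wild type, with overlap (0.35, SE 0.21, adjusted p = 0.737). The 95% interval of the difference in Arrdc4 ran from -0.13 to 0.82. For Mlxipl the fed genotype difference was 0.11 (95% interval -0.26 to 0.47), for Gckr 0.05 (-0.30 to 0.40), for Khk 0.07 (-0.34 to 0.48) and for Slc2a2 0.14 (-0.33 to 0.61). For Pklr it was 0.06 (-0.73 to 0.85), a wide interval. Of these 7 genes, Arrdc3 and Slc2a2 were higher in fed knockout without overlap (2 of 7), as were 16.2% of all genes. Arntl was lower in fed knockout, at 5.72 and 6.02, than in fed wild type arrays, at 7.50 and 7.10. That difference was not called (-1.43, SE 1.14, adjusted p = 0.814), and its part in the level of Txnip was not tested. Sums of hepatocyte markers (28205 to 28758 in fed knockout, 27964 to 28026 in fed wild type), cholangiocyte markers (223 to 239 in fed knockout, 258 to 268 in fed wild type) and stellate markers (3658 to 4103 in fed knockout, 4222 to 4256 in fed wild type) did not overlap between the fed genotypes either, and their part was not tested.

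**Figure D3:**
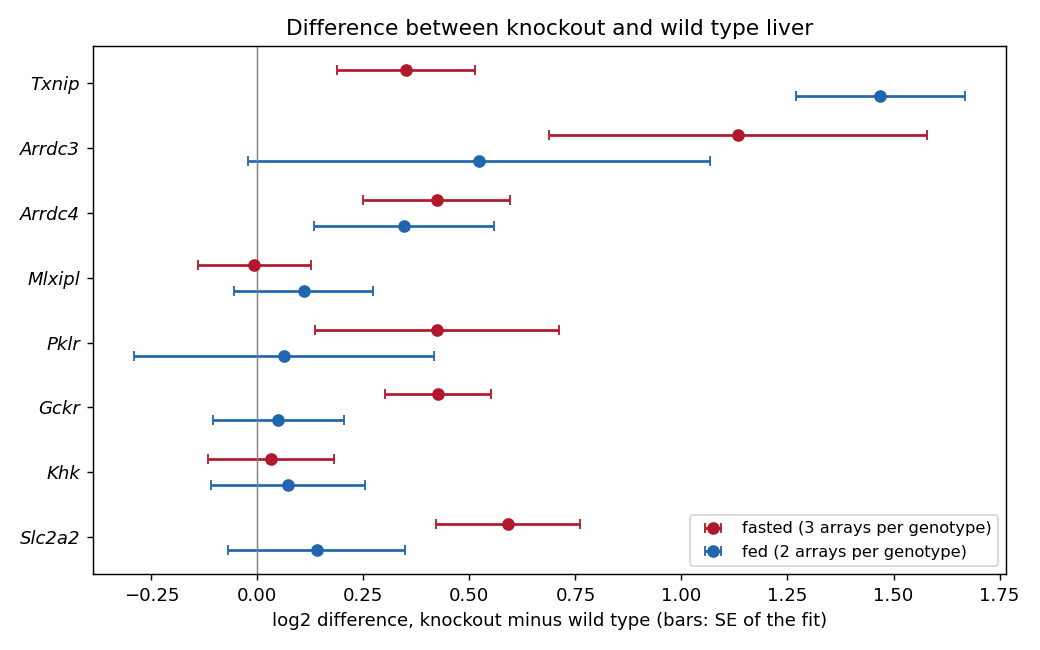
Log2 difference between knockout and wild type liver (horizontal axis) for each gene, in fasted and in fed liver, with the SE of the fit as bars. Txnip is at 0.35 in fasted and 1.47 in fed liver, whereas Slc2a2 is at 0.59 in fasted and 0.14 in fed liver.

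In fasted liver, none of the 8 genes was called by limma between knockout and wild type, though 4 (Arrdc3, Arrdc4, Gckr and Slc2a2) had an unadjusted p under 0.05. Of all genes, 11.1% were called and 28.6% had an unadjusted p under 0.05. Of the 8 differences 7 were above 0, with a median of 0.42, against 0.01 over all genes, and 4 of the 8 genes (Txnip, Arrdc4, Gckr and Slc2a2) were higher in fasted knockout without overlap (17.9% of all genes). With fasted knockout replicates 1 and 2 left out, 6 genes in all were called in place of 1549. This comparison shares no array with the fed difference that led to the choice of Txnip.

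Txnip lay at 10.81, 11.08 and 10.67 in fasted knockout, against 10.52, 10.49 and 10.50 in fasted wild type arrays. Each knockout array was above each wild type array (0.35, SE 0.16, adjusted p = 0.190, 95% interval -0.01 to 0.72). With fasted knockout replicates 1 and 2 left out, the difference of Txnip was 0.17 (adjusted p = 0.734), that of Gckr 0.47 (0.230) and that of Arrdc4 0.39 (0.445). Gckr was also without overlap, at 10.30, 10.05 and 10.25 in fasted knockout and 9.88, 9.60 and 9.85 in fasted wild type (0.43, SE 0.13, adjusted p = 0.0581). In Gckr, fasted knockout replicate 3 lay with replicates 1 and 2, unlike on the clock genes. Arrdc4 was 0.42 higher in fasted knockout (SE 0.17, adjusted p = 0.142), again without overlap between the genotypes.

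Slc2a2 lay at 11.48, 11.45 and 10.83 in fasted knockout, against 10.83, 10.63 and 10.53 in fasted wild type arrays. The lowest knockout array and the highest wild type array were equal to 2 decimals, and the difference was 0.59 (SE 0.17, adjusted p = 0.0530). Arrdc3 lay at 10.57, 10.57 and 9.13 in fasted knockout, against 9.02, 8.15 and 9.71 in fasted wild type, with overlap through replicate 3 of each (1.13, SE 0.44, adjusted p = 0.127). Without fasted knockout replicate 3, Slc2a2 (0.80, adjusted p = 0.00669) and Arrdc3 (1.61, adjusted p = 0.0288) were both called. With fasted knockout replicates 1 and 2 left out, the difference was 0.17 in Slc2a2 (adjusted p = 0.609) and 0.17 in Arrdc3 (adjusted p = 0.896). Of 12 alternative ways of processing, Slc2a2 was called in 7 and not in 5, and Gckr was called in 4 and not in 8. Slc2a2 was among the called with the replicate number as a block (0.59, adjusted p = 0.0310).

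Pklr overlapped between the fasted genotypes (0.42, SE 0.29, adjusted p = 0.367), and its difference was -0.24 (adjusted p = 0.674) with fasted knockout replicates 1 and 2 left out. Mlxipl showed -0.01 (SE 0.13, 95% interval -0.31 to 0.29) and Khk 0.03 (95% interval -0.30 to 0.37) between the fasted genotypes, both with overlap. Without those 2 arrays they showed -0.16 (adjusted p = 0.702) and -0.23 (adjusted p = 0.479). The interaction of genotype and fasting was called for 0 of the 7 genes other than Txnip in limma, and for 0 of them at an unadjusted p under 0.05, where 2.11% of all genes were called and 20.1% had an unadjusted p under 0.05.

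The sums of some markers of other cells did not overlap between the fasted genotypes. The summed intensity of the 5 macrophage markers was 2660 to 2887 in fasted knockout and 2277 to 2413 in fasted wild type arrays. That of the 4 cholangiocyte markers was 241 to 263 in fasted knockout and 280 to 308 in fasted wild type. The sums of the other lists overlapped, with hepatocyte markers at 27356 to 29943 in fasted knockout and 29204 to 29905 in fasted wild type. The part of these markers in the differences above was not tested.

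**Figure D4:**
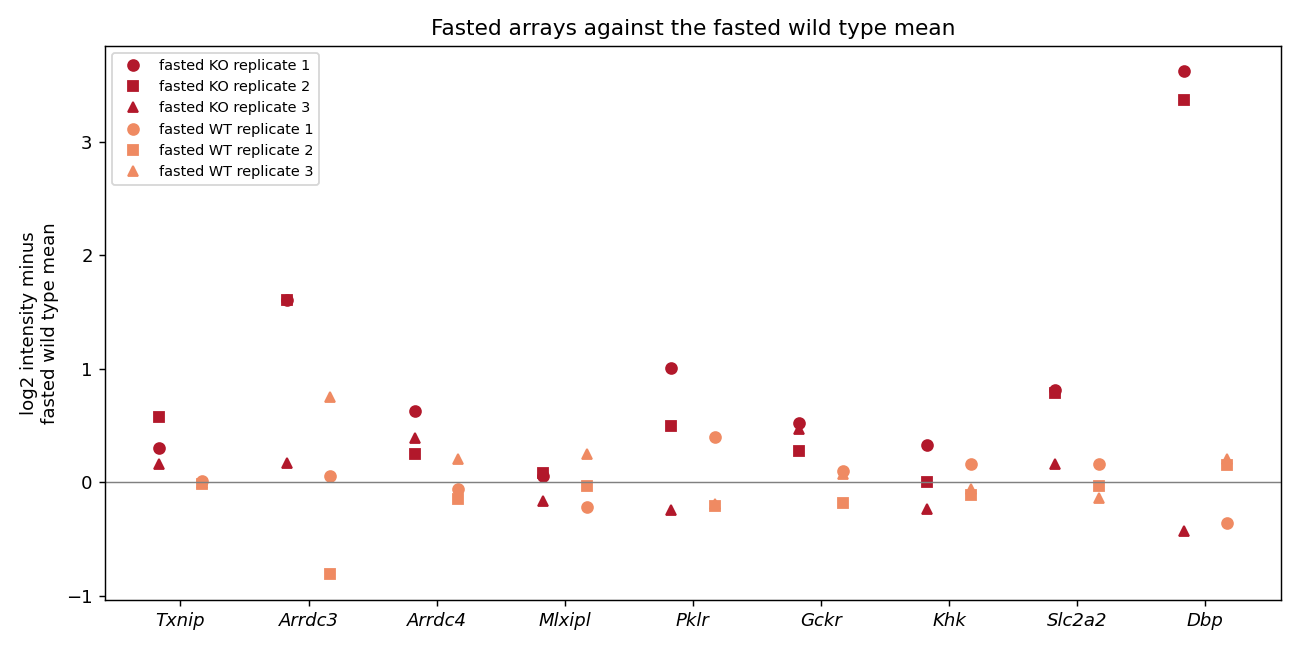
Log2 intensity minus the fasted wild type mean (vertical axis) of the 8 genes and Dbp on each fasted array, with a symbol shape for each replicate number. Fasted knockout replicate 3 lies apart from replicates 1 and 2 in Arrdc3, Slc2a2 and Dbp, but lies between them in Arrdc4 and Gckr.

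Another probe set of the array is annotated with both Txnip and Gm15441, a long noncoding RNA gene whose interval overlaps that of Txnip in RefSeq and which is known as an antisense transcript of Txnip in mouse liver. The 2 transcripts cannot be told apart on it, so it was left out of the values of Txnip above, and it was singled out after its values were seen. It lay at 11.77, 11.93 and 11.89 in fasted wild type arrays, against 5.20 and 5.32 in fed wild type arrays. Both fed wild type arrays were below their array median, so the fasted level was at least 82.8-fold higher than the fed level, with the mean of those medians standing in for the fed level. No p is given for this probe set, because it was singled out for its values.

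In knockout the probe set annotated with both genes lay at 6.83, 9.06 and 9.61 in fasted arrays (replicates 1, 2 and 3), against 6.77 and 6.29 in fed arrays. The fasted arrays were spread more widely than in any other group of this probe set (SD 1.47, n = 3), and the lowest of them was at the level of fed knockout replicate 1. In a fit over all 23492 kept probe sets, the fasting difference in knockout was 1.97 (SE 0.66), and 2.81 without fasted knockout replicate 1. The difference between fasted knockout and fasted wild type was -3.36 (SE 0.59), and -2.25 with fasted knockout replicates 1 and 2 left out, and every fasted knockout array was below every fasted wild type array. On this probe set fasted wild type arrays were the highest of the 10, whereas on the probe set of Txnip alone fed knockout replicate 2 was the highest.

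**Figure D5:**
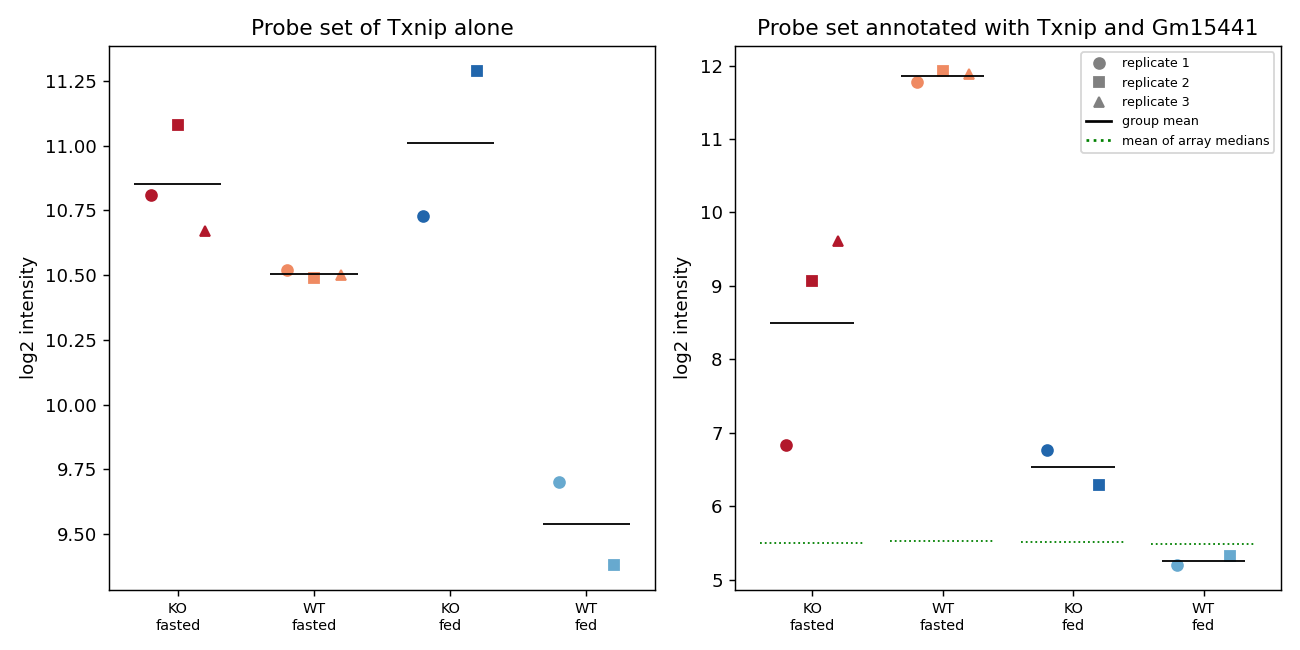
Log2 intensity (vertical axis, a separate scale per panel) on each array of the probe set of Txnip alone and of the probe set annotated with Txnip and Gm15441, with group means as lines and the mean of the array medians as a dotted line. The first panel is lowest in fed wild type and overlaps between the knockout groups, and the second is at 11.77 to 11.93 in fasted wild type and at or below 9.61 elsewhere.

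The other genes of the pathway were taken from lists chosen with earlier results of these data known. Their counts stand against 1.68% of all genes called with fasting in knockout, 21.4% with fasting in wild type, 11.1% between the fasted genotypes and 0.0861% between the fed genotypes. Of 7 lipogenic ChREBP targets, 3 were called lower with fasting in knockout, against 0.868% of all genes. In wild type 4 were called lower, against 13.2% of all genes. In both genotypes 0 were called higher, though 2 of the 7 differences in wild type were above 0. The median difference of the 7 was -1.17 in knockout, against 0.01 over all genes, and -1.23 in wild type, against -0.02 over all genes. Acacb went against the list in wild type, at 9.70 to 9.78 in fasted and 8.81 to 9.0 in fed arrays. That rise was without overlap but not called. Acly, which makes cytosolic acetyl-CoA, fell by 2.26 in wild type (SE 0.31, adjusted p = 0.00146). Fasn, fatty acid synthase, fell by 1.83 in knockout (SE 0.31, adjusted p = 0.0323). The knockout calls of Acly, Acaca and Fasn held in 1, 1 and 5 of 10 omissions of 1 array (adjusted p up to 0.294, 0.270 and 0.194). Between the fed genotypes 0 of the 7 lipogenic targets was called by limma, and 0 had an unadjusted p under 0.05. In fasted liver Acacb alone was called, lower in knockout (-0.97, SE 0.26, adjusted p = 0.0428), a call that held in 3 of 10 omissions (adjusted p up to 0.119). This comparison shares the fasted wild type arrays with the rise of Acacb in wild type. Acacb without fasted knockout replicates 1 and 2 was at -0.80 (adjusted p = 0.171).

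Of 12 other carbohydrate-response targets tested, 2 were called higher with fasting in wild type, Fgf21 and Rgs16, as were 8.23% of all genes. In the lower direction 0 were called, against 13.2% of all genes, though 6 of the 12 differences were below 0. Fgf21, a hepatokine, was at 8.37 to 9.30 in fasted wild type and at 4.97 to 5.54 in fed wild type (3.61, SE 0.43, adjusted p = 0.000779), a call that held in all 10 omissions. The fed wild type array medians were 5.44 and 5.54, so Fgf21 was dim there and the size of its rise is uncertain. Fgf21 passed the filter through the other groups, so the test of its rise is not independent of the filter. Rgs16, a regulator of G protein signalling that follows carbohydrate intake in liver, rose by 2.07 (SE 0.64, adjusted p = 0.0460), a call that held in 3 of 10 omissions of 1 array (adjusted p up to 0.274). Between the fed genotypes 0 of the 12 was called by limma and 2 had an unadjusted p under 0.05 (8.63% of all genes), Rgs16 and Klf10, both in the direction of Txnip. Rgs16 lay between 10.96 and 11.34 in fed knockout and between 6.78 and 8.37 in fed wild type arrays, without overlap (3.58, SE 0.70, adjusted p = 0.177). Klf10, a glucose-induced repressor, lay between 8.25 and 9.0 in fed knockout and between 7.40 and 7.55 in fed wild type arrays, also without overlap (1.15, SE 0.26, adjusted p = 0.204). Thrsp, a lipogenic target of ChREBP, was not called in any comparison, with a fasted knockout range of 7.68 to 10.75. Fgf21 was lower in fasted knockout than in fasted wild type (-1.76, SE 0.38, adjusted p = 0.0217), a call that held in 6 of 10 omissions (adjusted p up to 0.0781). That comparison shares the fasted wild type arrays with the rise of Fgf21. With fasted knockout replicates 1 and 2 left out, the difference of Fgf21 was -0.89 (adjusted p = 0.242).

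Of 5 partners and relatives of ChREBP tested, Mlxip (MondoA) rose (0.78, SE 0.17, adjusted p = 0.0101) and Mxd4 fell (-0.41, SE 0.11, adjusted p = 0.0268) with fasting in wild type. In limma 0 of the 5 were called in the other comparisons, where 1 or 2 had an unadjusted p under 0.05, against 8.63% to 28.6% of all genes. Mlxip was at 7.89 to 8.27 in fasted wild type and at 7.22 to 7.33 in fed wild type, without overlap. The call of Mlxip held in 9 and that of Mxd4 in 6 of 10 omissions of 1 array, with adjusted p up to 0.0587 and 0.135.

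Of 7 other alpha-arrestins and their ubiquitin ligases, Nedd4l rose (0.78, SE 0.24, adjusted p = 0.0483) and Wwp2 fell (-0.45, SE 0.12, adjusted p = 0.0276) with fasting in wild type. Both ligases were called in the opposite direction between fasted knockout and fasted wild type, with Nedd4l at -1.02 (SE 0.22, adjusted p = 0.0204) and Wwp2 at 0.58 (SE 0.11, adjusted p = 0.0135). These comparisons share the fasted wild type arrays. The wild type calls of Nedd4l and Wwp2 held in 2 and 7 of 10 omissions (adjusted p up to 0.224 and 0.192), and the genotype calls in 6 and 9 (up to 0.0758 and 0.0551). With fasted knockout replicates 1 and 2 left out, the genotype difference was -0.46 in Nedd4l and 0.55 in Wwp2, from 1 knockout array. Arrdc2 was lower with fasting in knockout (-1.26, SE 0.26, adjusted p = 0.0483), a call lost in all 10 omissions (adjusted p from 0.0637).

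Of 6 genes of the thioredoxin system, in which thioredoxin reductases keep the partner of Txnip reduced, Txnrd1 rose and Txnrd2 and Txnrd3 fell with fasting in wild type, and Txnrd2 and Txnrd3 were higher in fasted knockout than in fasted wild type. Txnrd3 fell by 1.19 (SE 0.21, adjusted p = 0.00398) in wild type and was 1.03 higher in fasted knockout (SE 0.18, adjusted p = 0.0114). Both calls held in 10 of 10 omissions, though both comparisons use the fasted wild type arrays. Txnrd3 was dim, at 4.42 to 5.20 in fasted wild type, where array medians were 5.49 to 5.57, and at 5.69 to 6.11 in the other groups. It passed the filter only through those other groups, so neither test is independent of the filter, and the sizes are uncertain. With fasted knockout replicates 1 and 2 left out, the genotype difference was 0.91 in Txnrd3 and 0.41 in Txnrd2, from 1 knockout array. The calls of Txnrd1 and Txnrd2 with fasting held in 1 and 8 of 10 omissions (adjusted p up to 0.262 and 0.182), and that of Txnrd2 between fasted genotypes in 2 (up to 0.140). Of 4 other genes of the Slc2a transporter family tested, Slc2a8 (-0.51, SE 0.12, adjusted p = 0.0131) and Slc2a9 (-1.07, SE 0.23, adjusted p = 0.0116) fell with fasting in wild type. Each of these 2 calls held in 9 of 10 omissions (adjusted p up to 0.0938 and 0.0937).

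Of 4 fructose and polyol genes tested, the fructose transporter gene Slc2a5 fell (-1.65, SE 0.45, adjusted p = 0.0272) and so did Glyctk, glycerate kinase (-0.47, SE 0.13, adjusted p = 0.0296), with fasting in wild type. Slc2a5 was at 6.02 to 7.79 in fasted knockout and at 4.60 to 5.56 in fasted wild type, higher in knockout (1.93, SE 0.40, adjusted p = 0.0188). The fasted wild type array medians were 5.49 to 5.57, so Slc2a5 was dim there and the size of both its differences is uncertain. Slc2a5 passed the filter only through the other groups, so neither of its tests is independent of the filter. Omitting arrays does not remove that limit. The call of Slc2a5 held in 6 of 10 omissions with fasting (adjusted p up to 0.171) and in 7 between genotypes (up to 0.0599), and that of Glyctk in 6 (up to 0.144). The genotype difference of Slc2a5 was 0.99 with fasted knockout replicates 1 and 2 left out, from 1 knockout array. Of 9 glycolysis genes tested, Pfkl, the liver phosphofructokinase, fell with fasting in wild type (-0.59, SE 0.10, adjusted p = 0.00309) in all 10 omissions. Pfkl was higher in fasted knockout, at 7.78 to 7.82, than in fasted wild type, at 7.34 to 7.36 (0.45, SE 0.09, adjusted p = 0.0143), which held in 9 of 10 omissions (adjusted p up to 0.0529). Both differences of Pfkl, like both of Slc2a5, use the fasted wild type arrays. Pkm, the pyruvate kinase of other tissues, was lower in fasted knockout (-0.52, SE 0.11, adjusted p = 0.0190), which held in 8 omissions (up to 0.0665), and Pfkfb2 rose with fasting in wild type (0.63, SE 0.16, adjusted p = 0.0222), which held in 6 (up to 0.132). Between the fasted genotypes, Pfkl was at 0.44 and Pkm at -0.54 with fasted knockout replicates 1 and 2 left out, from 1 knockout array.

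Likeness to other genes was measured as the mean absolute log2 difference over the 10 arrays, after each gene was centred on its own mean, for the 6 genes that spanned at least 1 log2 unit. The nearest genes to Txnip were Slc23a2 (0.16), a vitamin C transporter gene, Arhgef26 (0.20) and Krtap19-9b (0.22), against a span of 1.91 in Txnip itself. Nearest to Arrdc3 were Bhlhe40 (0.25), a clock-linked repressor, Rnf152 (0.26) and Tk1 (0.26), against a span of 3.01 in Arrdc3. Nearest to Pklr were Nat8f4 (0.11), Tkfc (0.13), the triose kinase of fructose metabolism, and Lin7a (0.14). Nearest to Arrdc4 were Arhgap18 (0.14), Vwce (0.14) and Necab1 (0.15). Those of Gckr, at 0.07 each, were Parp1, Tmem19 and Ttll5, and those of Slc2a2, at 0.09 or less, were Rad9b, Hoga1 and Pdia5. The 10 arrays share the group structure and the clock division, and these values are descriptions.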

How the data were processed

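Total liver RNA of 10 samples was hybridised to Affymetrix Mouse Gene 2.1 ST arrays. The deposited table holds normalized intensity on a linear scale, which the authors made with RMA in Affymetrix Expression Console per the submitters' processing notes. The sources used here give no versions, and no unnormalized scanner files were used. The table also holds some values close to 0, which RMA does not usually give, so the exact summary step is not settled. RMA pulls the arrays to a common distribution, so a shift of all genes cannot be seen. Of 41345 probe sets, 23521 had 1 gene symbol in the platform annotation, 1814 had several and 16010 had none, and probe sets with several or no symbols named no gene.

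Intensities were log2 transformed with no pseudocount. Probe sets above the array median (percentile 50) on at least 2 arrays were kept, and the brightest stood for each gene (14617 probe sets, 13942 genes). limma 3.58.1 in R 4.3.3 was fitted on 4 group means over all 10 arrays, with 5 contrasts, eBayes (prior df 3.63, residual df 6) and Benjamini-Hochberg adjustment over all genes at 0.05. The scripts were tested on simulated data. Only the number of arrays limits the precision, since no depth applies to arrays. The alternatives covered normalization, filter, probe set choice, variance model, array weights, replicate block, pseudocount and omitted arrays. The files give no scan date or slide, so no such batch was fitted.

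The members and lists were chosen with earlier results of these data known. Genes named were the members, Pml and, of each list, up to 3 with the smallest unadjusted p in each of the 4 simple comparisons. Dbp and Arntl were given beside the results because the fasted knockout arrays split on them. The tests planned for Txnip in the fed genotype difference and the interaction are not printed, because that difference led to its choice.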

Additional observations from a re-analysis of the deposited data

Results flagged for a closer look

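The probe set annotated with both Txnip and Gm15441, which enters none of the comparisons of the 8 genes, had a mean log2 intensity of 11.86 in fasted wild type arrays (SD 0.08, n = 3), against 5.26 (SD 0.09, n = 2) in fed wild type arrays. It stood out as a signal outside the main measurement that lay above its level in fed wild type liver. In knockout the means were 8.50 (SD 1.47, n = 3) in fasted and 6.53 (SD 0.34, n = 2) in fed arrays. Which of the overlapping transcripts gave the signal was not tested.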

How the results depend on the processing

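Pml and member counts were recomputed under each alternative. Of the 8 genes, 4 to 7 were called with fasting in wild type over 12 alternatives, and 3 to 7 over the 10 omissions of 1 array. With fasting in knockout, where 1 was called, the count was 0 with no filter, 2 with the stricter filter, 3 with a trended and robust variance, 0 with the replicate block, 0 with only the groups compared, 2 with a pseudocount of 16, 0 with fasted knockout arrays 1 and 2 left out and 0 to 1 over the omissions. Between the fasted genotypes, where 0 were called, it was 1 with centred arrays, array weights or the replicate block, 2 with the stricter filter, the trended and robust variance, a pseudocount of 16 or the block with crossed fed numbers, and 0 to 2 over the omissions. Between the fed genotypes 0 of the 7 genes tested was called under any of these. The call of Pml in fed liver (-1.63) was lost with no filter (adjusted p = 0.125), the replicate block (0.150), only the groups compared (0.386), fasted knockout arrays 1 and 2 left out (0.0967) and the crossed block (0.0826), and over the omissions the value ran from -1.88 to -1.38. In fasted liver Pml was -1.65 (adjusted p = 0.0708) with fasted knockout arrays 1 and 2 left out, and -1.75 to -1.43 over the omissions. The sign turned for Mlxipl between the fasted genotypes (0.017) and the Khk interaction (0.0034) with centred arrays. With fasted knockout arrays 1 and 2 left out it turned for Pklr (-0.24) and Khk (-0.23) between the fasted genotypes and for the interactions of Arrdc3 (-0.35) and Pklr (-0.30). Over the omissions, ranges crossed 0 for Txnip with fasting in knockout (-0.44 to 0.13), for Pklr (-0.12 to 0.25), Gckr (-0.12 to 0.22) and Khk (-0.014 to 0.16) between the fed genotypes, for Mlxipl (-0.11 to 0.12) and Khk (-0.12 to 0.17) between the fasted genotypes, and for the interactions of Arrdc4 (-0.18 to 0.34), Mlxipl (-0.22 to 0.0074) and Khk (-0.19 to 0.095). The causes of these changes were not tested.

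Over all genes, the 234 calls with fasting in knockout became 10 with no filter, 452 with the stricter filter, 504 with the trended and robust variance, 0 with the replicate block, 16 with only the groups compared and 30 with the crossed block. The 12 calls between the fed genotypes became 4 with no filter, 24 with the trended and robust variance, 2 with fasted knockout arrays 1 and 2 left out, and 0 with either block or only the groups compared. The 1549 between the fasted genotypes became 654 with no filter, 850 with only the groups compared and 6 with fasted knockout arrays 1 and 2 left out. The 294 of the interaction became 4, 501, 520 and 137 with no filter, the stricter filter, the trended and robust variance and the replicate block, and 0 with those 2 arrays left out. Over the omissions the counts ran from 1326 to 3062 and from 1 to 170 with fasting in wild type and in knockout, from 0 to 17 and from 435 to 1501 between the fed and the fasted genotypes, and from 2 to 360 for the interaction. Samples with the same replicate number did not deviate together (r from -0.173 to 0.105 over 13 pairs), so the numbers were not taken to pair the samples. With the replicate block the fasting calls of Mlxipl in wild type (-0.57, adjusted p = 0.0576) and Arrdc4 in knockout (-1.12, adjusted p = 0.0853) were lost. The crossed block and the fit over all probe sets were chosen after seeing the data.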
